A study of Homo sapiens with 9 samples.

Results

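Intronless genes carry their whole message in a single exon. The 188 genes described here are the nuclear-encoded protein-coding genes whose every annotated transcript has 1 exon and that reached 10 or more summed reads in at least 3 of the 9 libraries. The files listed 884 single-exon protein-coding genes among 56347 genes in all. Histone genes, ZNF, HOX and SLC genes and 8 further genes (JUN, JUNB, JUND, IER2, MC1R, TAF7, HSPA1A and HSPA1B) were left out by name, which removed 51 genes, 16 of them above the read minimum. Of the 833 that remained, 645 fell below the minimum and 376 of these had no read in any library. The members were thus chosen by their summed reads in these libraries, so how many reads they hold is a description and not a result. OXER1, MAGEH1 and FOXE3 stood just inside the minimum, with 10 reads in the library that ranked the third for each gene, and C8orf49, DNAJB7 and EIF5AL1 just outside, with 9.15, 8.26 and 8.16 reads.

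Most human mRNAs are spliced, and splicing helps to load the TREX export complex onto them. Intronless mRNAs leave the nucleus without that step. N6-methyladenosine (m6A) is placed on mRNA in the nucleus by METTL3 and METTL14 with WTAP, KIAA1429 (VIRMA) and other subunits, mostly at sites of which GGACT is the commonest form, and often in long exons and around stop codons. Known intronless genes include many transcription factors, G protein-coupled receptors and feedback regulators of signalling.

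The series measured RNA in nuclear and cytoplasmic fractions of HEK293 cells, a line derived from human embryonic kidney (the labels name HEK293, the study's methods its derivative HEK293T for the siRNA transfections), after control siRNA or combined WTAP and KIAA1429 siRNA (RNAi cells). There were 3 control nuclear, 3 RNAi nuclear, 2 RNAi cytoplasmic (replicates 1 and 2) and 1 control cytoplasmic library (replicate 2), so every value against control cytoplasm rests on a single library whose spread was taken from the other groups. The labels number replicates without stating separate cultures, so the p-values measure the spread between these libraries. Estimated counts summed to between 11627403 and 19036141 per library, and members took 0.421% to 0.539% of the counts matched to genes. WTAP stood at 23.0 to 27.6 CPM, counts scaled to the library, in control nuclei and 12.2 to 15.5 in RNAi nuclei, 56.2% of control (FDR 0.017), and VIRMA at 47.2% (FDR 0.031). VIRMA missed the FDR limit when control nuclear replicate 3 (FDR 0.123), RNAi nuclear replicate 2 (0.123) or RNAi nuclear replicate 3 (0.141) was left out. Of the 7 markers of HEK293 cells fixed for the check, PAX2, NEFM, INA, VIM and IRS4 were present in all 9 libraries and LHX1 and NEFL were not matched to the files, while PTPRC and ALB stood at 0 to 0.197 TPM, a level scaled by transcript length and library. COL1A1, a collagen gene listed with these as a marker of other cells, stood at 12.3 to 17.7 TPM. The mitochondrial mRNA MT-CO1, fixed as a cytoplasmic marker, was higher in the control nuclear libraries, with a log2 nuclear/cytoplasmic ratio of 1.66 (FDR 0.011), and so was MT-CYB at 1.33 (FDR 0.026), while MT-ND4 had one of 0.24 (FDR 0.670) and the nuclear RNA MALAT1 one of 3.42. In these bulk samples fewer cells with a transcript and less of it per cell cannot be told apart.

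Sequences of most genes whose nuclear/cytoplasmic ratio changed after RNAi are shown first. The reason is that the siRNAs targeted subunits of the complex that methylates this motif. Each window is the GGACT match nearest the stop codon of the annotated transcript, on GRCh37 and written 5′ to 3′ along the transcript, with the motif in capitals and 8 bases on either side.
RHOB, chr2:20647958-20647978 (+): ttgcgccaGGACTtggcgtgg
CENPB, chr20:3765262-3765282 (-): agggcagaGGACTctctgggc
FAM43B, chr1:20880462-20880482 (+): gaaggacaGGACTcgcagccc
FZD2, chr17:42637004-42637024 (+): gggcgccaGGACTgaagaatg
NOG, chr17:54672736-54672756 (+): tttgtagaGGACTttttaaaa
SOX12, chr20:307463-307483 (+): atcgcgggGGACTggcgcccg
RNF26, chr11:119206565-119206585 (+): ttgcatccGGACTtcaccctg
P2RY1, chr3:152555510-152555530 (+): atgccttaGGACTttgtttgt
IGIP, chr5:139508482-139508502 (+): actttttaGGACTcagtagca
KCTD12, chr13:77459981-77460001 (-): tacctgcgGGACTtgcagctc
The match of RHOB lies in the 3′ UTR, 151 bases after the first base of the stop codon, and those of CENPB, FAM43B, FZD2, NOG, P2RY1 and IGIP are also in 3′ UTRs, at 59, 16, 260, 463, 827 and 269 bases. The matches of SOX12, RNF26 and KCTD12 are in coding sequence, at 43, 559 and 685 bases before it. The windows of FNDC10, TMEM185B and NAP1L2 are not printed and lie further off than most. Those of FNDC10 and TMEM185B are in 3′ UTRs, 1142 and 745 bases after the first base of the stop codon. That of NAP1L2 is coding, 769 bases before this base. SOX12 held 12 matches, 5 of them coding, and RHOB 4. The transcripts of KRTAP19-1 and SMIM10, which also changed, held no GGACT on the transcript strand. At least 1 match was present in 92.6% of members (174 of 188), in 80.8% of the 13256 spliced protein-coding genes tested and in 78.7% of all 16181 genes tested, with medians of 1.05, 0.956 and 0.942 per kb. A match to these letters is not a mapped m6A site. A list of intronless genes that the study compiled from earlier m6A maps and from transcripts bound by WTAP or by the m6A reader YTHDC1, without these libraries, held 117 of the members. A member that is not on this list may still carry mapped m6A.

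As a description without a test, the members had longer transcripts, a higher GC content and lower levels than spliced genes. The median length of the most abundant transcript was 2492 nt against 2005 nt, and median GC content 55.2% against 51.2%. Their median level was 2.75 TPM against 7.59 TPM. The 117 members on the m6A list had a median of 5.13 TPM and the other 71 of 0.900 TPM. The 12 most abundant members held 58.8% of all member TPM, 50 members reached 10 TPM and 54 stayed under 1 TPM.

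The members differed widely in level. The mean TPM that ranks them is over 6 nuclear and 3 cytoplasmic libraries, so the order depends on that mix. SF3B5, a small subunit of the SF3b splicing complex, had a mean of 399 TPM (288 to 482 over the 9 libraries) and PCBP1, a poly(C)-binding RNA-binding protein that arose by retrotransposition, 323 TPM (221 to 562), so these neighbours were not separated beyond their spread. RHOB, a small GTPase of endosomes and the actin cytoskeleton, followed at 144 TPM (90.8 to 221), then FNDC10 at 91.3, the ubiquitin ligase RNF26 at 88.4 and the Gag-derived gene RTL8B at 67.0 TPM. RRAGA, a GTPase of amino acid sensing at the lysosome, stood at 59.3 TPM and ATXN7L3B at 48.4. IRF2BP1 at 41.1, the zinc finger factor THAP11 at 40.8, C6orf226 at 34.8 and the RNA-binding protein HNRNPA0 at 34.3 TPM closed the 12. FNDC10 averaged 68.8 TPM in control nuclei and 146 in control cytoplasm, and RNF26 85.8 and 83.0, so their order differs between the fractions.

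Not every member has reads of its own. All 9 estimated counts were whole numbers in 102 members, whereas 41 had none, which occurs where salmon divided reads among transcripts. A same-strand gene overlapped 38 members (29 lay inside its span), an opposite-strand gene overlapped 65, and 29 had a stretch of at least 200 bases at 95% identity or more in a transcript of another gene. RBM15B, itself a subunit of the m6A writer complex, shows the limit and was picked out after its values were seen. Its level ran from 0.0885 to 21.5 CPM within the 3 control nuclear libraries, none of its counts was whole, and no comparison called it.

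The nuclear/cytoplasmic ratio in control cells asked how the members divide between the fractions. Called members passed an FDR of 0.1 over all 16181 genes and a log2 difference of 0.5. In control cells 43 members (22.9%) were higher in the nucleus, against 28.0% of all genes tested and 23.3% of spliced protein-coding genes, and 19 (10.1%) were higher in the cytoplasm, against 22.7% and 26.7%. Median log2 ratios were 0.06 for members, 0.04 for all genes and -0.11 for spliced genes. A member that is abundant in 1 fraction passes the read minimum more easily there, and 45 members were under 10 reads in at least 1 library. Among the 80 members with a mean of 10 CPM or more, 13 were higher in the nucleus and 11 in the cytoplasm, 16.2% and 13.8%, beside 20.9% and 30.8% of 7917 spliced genes above the same level.

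The cytoplasmic side held several of the most abundant members. PCBP1 stood at 683 CPM in control cytoplasm and 431, 312 and 381 CPM in the control nuclei, a log2 ratio of -0.87 ± 0.17 (SE, FDR 0.0024). All 3 nuclear libraries were below the cytoplasmic one. FNDC10, which encodes a fibronectin type III domain protein, had 295 CPM in cytoplasm and 119.7, 138 and 136 in the nuclei, a log2 ratio of -1.17 ± 0.12 (SE, FDR 5.7e-05). SF3B5, THAP11 and RRAGA were also higher in cytoplasm, with log2 ratios of -0.56, -0.70 and -0.53. The steepest called differences with a mean of at least 1 CPM were those of SMIM10 (-1.43), the GABA-B receptor auxiliary subunit KCTD12 (-1.33), TIGD5 (-1.32), RSC1A1 (-1.24) and the nucleosome assembly protein gene NAP1L2 (-1.19). RSC1A1 lies within DDI2 and had no whole count.

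Members higher in the nucleus included FZD2, SOX12, SOX4, NOG, TMEM185B and FZD7. The Wnt receptor gene FZD2 had 73.9, 67.2 and 73.5 CPM in control nuclei and 26.4 CPM in cytoplasm, a log2 ratio of 1.44 ± 0.14 (SE, FDR 5.1e-05). The SOX genes SOX12 and SOX4, which encode transcription factors of neural and mesenchymal progenitors, had log2 ratios of 1.79 ± 0.24 (SE, FDR 0.00026) and 0.88 ± 0.16 (SE, FDR 0.0014). NOG, which encodes the secreted BMP antagonist noggin, had 4.94, 5.11 and 5.75 CPM in nuclei and 1.64 in cytoplasm, a log2 ratio of 1.67 ± 0.30 (SE, FDR 0.0013). TMEM185B and FZD7 followed at 1.11 and 0.69. In these genes every nuclear library was above the cytoplasmic one.

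The largest nuclear differences were those of rare members. NPAP1, inside PWRN1, had 74 reads over the 3 control nuclear libraries and 0 in control cytoplasm, and was at least 10-fold higher in the nucleus against a floor of 3 counts over the cytoplasmic group. AC016586.1 had 35 nuclear reads and 0 cytoplasmic, at least 4.73-fold. EBLN2, inside PPP4R2, had 52 nuclear reads and 1 cytoplasmic, a ratio of 21.1 with a 95% exact counting interval of 3.62 to 849. OXCT2, inside BMP8B and with a copy in OXCT2P1, had 73 and 3 reads, a ratio of 9.87 (3.25 to 48.9). These intervals and floors cover counting error only. With 0 to 3 reads in control cytoplasm, these genes needed nuclear libraries to reach the read minimum. That rare members stand out on the nuclear side thus follows in part from the rule. YY2, inside MBTPS2 and with no whole count, was called at a log2 ratio of 2.29 ± 0.56 (SE, FDR 0.0073). Among the 29 members inside a same-strand gene 9 were higher in the nucleus and 2 in the cytoplasm (31.0% and 6.90%), and among the other 159 the numbers were 34 and 17 (21.4% and 10.7%), beside 28.0% and 22.7% of all genes. The difference between these groups of members was not tested. Unspliced RNA of a host gene cannot be told from the member's own RNA at such positions.

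In RNAi cells the split between the fractions was tested again with 3 nuclear and 2 cytoplasmic libraries. Here 45 members (23.9%) were higher in the nucleus, against 32.9% of all genes and 26.9% of spliced genes, and 34 (18.1%) were higher in the cytoplasm, against 24.9% and 28.6%. When library size alone set the scale these numbers were 56 and 13, and the median of all genes moved from 0.04 to 0.30. This comparison shares no library with that in control cells. Among the 143 members with 10 or more reads in every library 19 were nuclear and 34 cytoplasmic, 13.3% and 23.8%. The shares of the 11235 spliced genes of that kind were 21.0% and 33.2%. Of the 45 members with fewer reads in some library 26 were nuclear and 0 cytoplasmic (57.8% and 0%). The read minimum favours this last split. A gene seen only in nuclei can pass on nuclear libraries alone, but one seen only in cytoplasm must pass in every cytoplasmic library. Spliced genes with fewer reads leaned the same way. Nuclear calls were 3560 among all 13256 spliced genes and 2358 among the 11235, and cytoplasmic calls 3790 and 3732. The split of these 45 is thus a description and not a trait of intronless genes. At 10 CPM or more, 12 of 80 members were nuclear and 20 cytoplasmic (15% and 25%), beside 17.5% and 38.7% of spliced genes. SMIM10 was called cytoplasmic in control and nuclear in RNAi cells, and KRTAP19-1 the reverse.

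PCBP1 had 1041 and 824 CPM in RNAi cytoplasm and 434, 440.0 and 421 CPM in RNAi nuclei, a log2 ratio of -1.11 ± 0.14 (SE, FDR 9.2e-05). FNDC10 had the lowest log2 ratio of the called members, -1.72 ± 0.10 (SE, FDR 9.9e-07), followed by the transcriptional coactivator CITED4 at -1.64 ± 0.22 (SE, FDR 0.00015), TMEM158 at -1.44 ± 0.14 (SE, FDR 2.2e-05) and RPRML at -1.32 ± 0.37 (SE, FDR 0.01). All 5 had both cytoplasmic libraries above all 3 nuclear ones. HNRNPA0, RTL8B, IRF2BP1 and GPR27, an orphan G protein-coupled receptor, were also higher in cytoplasm, at -0.75, -0.61, -0.65 and -0.55. On the nuclear side, EBLN2 had 68 nuclear reads and 0 in 2 cytoplasmic libraries, at least 12.8-fold higher in the nucleus, and NPAP1 had 90 and 2, a ratio of 25.4 (6.83 to 213). HSPB9, a small heat shock protein gene of testis, had 56 and 2 reads, a ratio of 15.8 (4.18 to 134). AL353791.1 had 73 and 3, and C15orf62 was called at 3.25 ± 0.52 (SE, FDR 0.00042). EBLN2, NPAP1, HSPB9 and AL353791.1 likewise needed nuclear libraries to reach the read minimum.

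**Figure D1:**
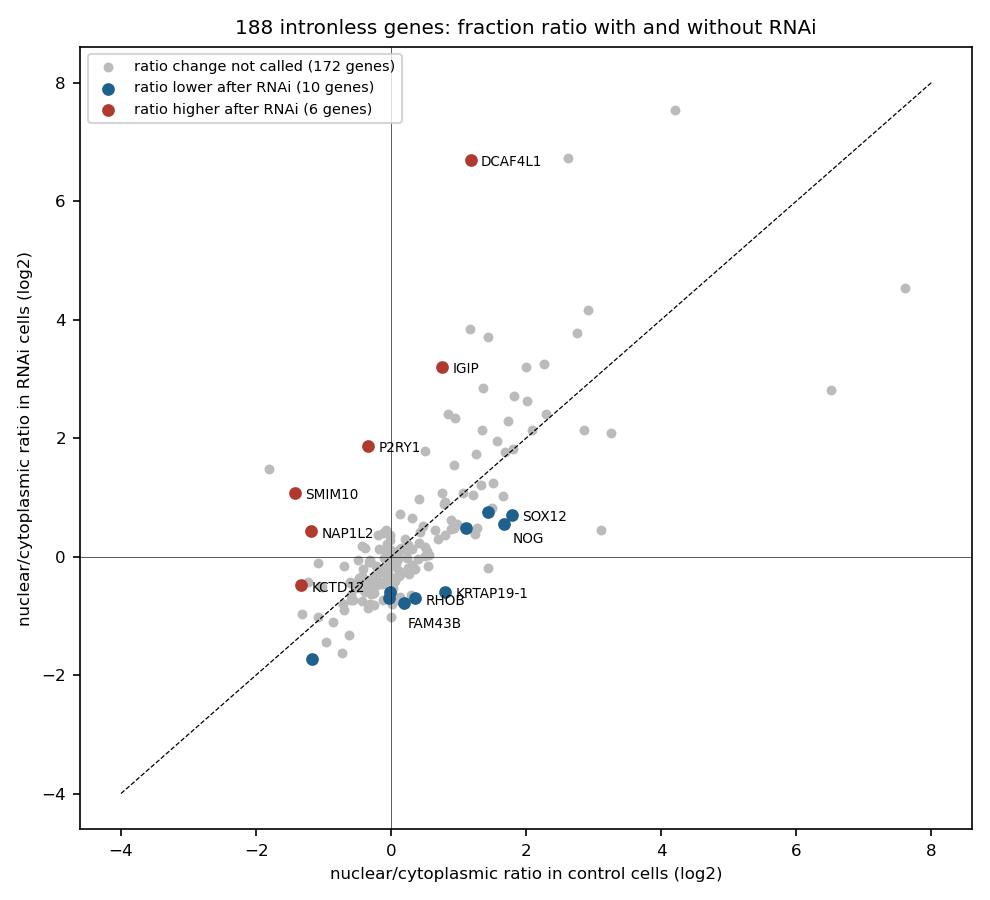
Nuclear/cytoplasmic log2 ratio of each of the 188 members in control cells (x axis) and RNAi cells (y axis), with the dashed line where both are equal, blue points for the 10 members whose ratio was called lower after RNAi and red points for the 6 called higher. Labels mark called members with a log2 change of at least 0.8 either way. Most points lie near the line, and the points beyond 4 on either axis are genes with 0 to 2 reads in 1 of the cytoplasmic groups, whose fitted positions are not bounds.

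The nuclear comparison of RNAi with control cells has the most libraries, 3 against 3. In RNAi nuclei 11 members fell (5.85%), against 2.42% of all genes and 2.55% of spliced genes, and 1 rose, against 2.47% and 2.17%. The median log2 change was -0.08 for members and -0.01 for spliced genes, and 112 of 188 members had a negative estimate. The count of falls was decided by single libraries. Leaving out the third control nuclear library, or the third RNAi nuclear one, left 0. The count was 1 without RNAi nuclear replicate 2 and 3 without RNAi nuclear replicate 1, while over all genes falls went from 392 to 42, 20, 49 and 129. With DESeq2 it was 6. FZD10, FOXD4, INSM1 and EID2, 4 of the 11, were also lower in RNAi cytoplasm. Of the 11, 10 were among the 117 members on the m6A list (8.55%) and 1 among the other 71 (1.41%). The list members had the higher levels, and the difference between the lists was not tested. Median log2 changes were -0.13 and 0.04, and within members of 10 CPM or more -0.09 (67 genes, 4 fell) and 0.03 (13 genes, 0 fell). Under 10 CPM the medians were -0.20 (50 genes, 6 fell) and 0.06 (58 genes, 1 fell).

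FZD10, a Wnt receptor, had 7.83, 7.84 and 9.56 CPM in control nuclei and 4.24, 3.43 and 4.50 CPM in RNAi nuclei, a log2 change of -1.04 ± 0.17 (SE, FDR 0.021). Every RNAi library was below every control library. FZD10 also fell in the cytoplasm, from 9.98 CPM to 6.78 and 5.69 (log2 -0.67 ± 0.24 SE, FDR 0.076), and its estimated counts were not whole in any library. NOG went from 4.94, 5.11 and 5.75 to 3.27, 2.60 and 2.54 CPM in nuclei, a log2 change of -0.90 ± 0.19 (SE, FDR 0.039), with no overlap between the groups. NRARP, a feedback inhibitor of Notch signalling, went from 81.2, 76.7 and 88.2 to 55.0, 58.4 and 55.2 CPM, -0.55 ± 0.09 (SE, FDR 0.017), and INSM1, a zinc finger factor of neuroendocrine differentiation, from 18.6, 21.7 and 21.2 to 15.2, 12.5 and 14.7 CPM, -0.53 ± 0.15 (SE, FDR 0.074). INSM1 also fell in the cytoplasm, by 0.65 on the log2 scale (FDR 0.053).

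Among enzymes, B3GALT6, which adds the linker galactose of glycosaminoglycans, had 36.3, 43.9 and 43.4 CPM in control nuclei and 21.6, 24.7 and 24.4 in RNAi nuclei, a log2 change of -0.81 ± 0.15 (SE, FDR 0.029). The lowest control library was above the highest RNAi library. GALNT4, a mucin-type O-glycosylation enzyme, fell by 0.92 on the log2 scale (FDR 0.075), but it lies within POC1B and the POC1B-GALNT4 readthrough and had no whole count. PPP1R3G, a glycogen-targeting subunit of protein phosphatase 1, had a log2 change of -1.0 ± 0.27 (SE, FDR 0.066) and the small GTPase RAP2B of -0.51 ± 0.14 (SE, FDR 0.077). FOXD4 had the lowest estimate, -1.59 ± 0.42 (SE, FDR 0.064), with control nuclei at 1.03, 2.86 and 1.95 CPM and RNAi nuclei at 0.695, 0.556 and 0.654. Its forkhead copies FOXD4L1 to FOXD4L6 share sequence with it. EID2 and TTC30B, named after their values were seen because they complete the 11, changed by -0.67 and -0.84, and TTC30B has a near-identical copy in TTC30A. The gene that rose, AC127496.1, overlaps CHMP6, had 1.37, 1.5 and 0.885 CPM in control and 2.5, 3.43 and 1.96 in RNAi nuclei and a log2 change of 1.03 ± 0.30 (SE, FDR 0.083).

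**Figure D2:**
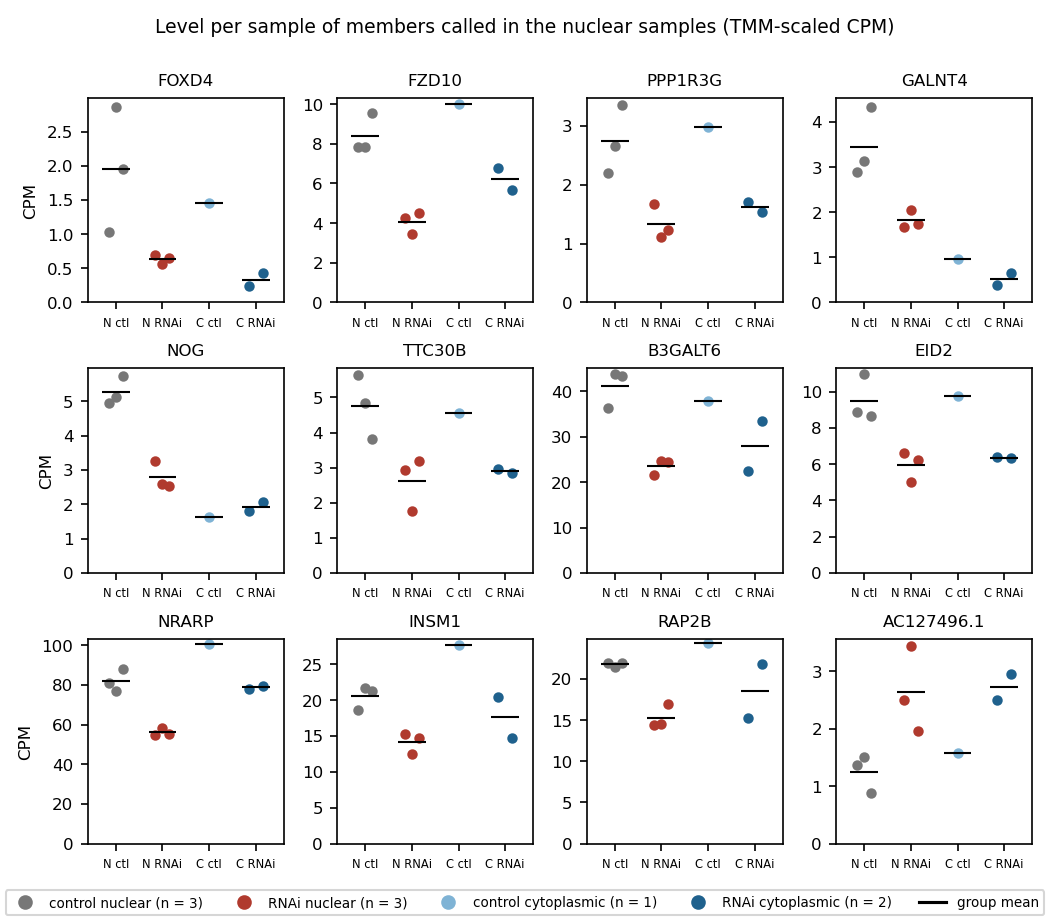
CPM (TMM-scaled) in each library of the 12 members called between RNAi and control nuclei, in the order of their log2 change, with N for nuclear, C for cytoplasmic and ctl for control. Points are libraries and bars are group means. In the 11 members that fell, every RNAi nuclear point is below every control nuclear point. They were called from these same points, so this separation is no added evidence. Each scale starts at 0.

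In the cytoplasm 17 members were higher in RNAi cells (9.04%), against 10.4% of all genes and 11.9% of spliced genes, and 15 were lower (7.98%), against 14.2% and 16.0%. With library size alone these became 4 and 32, as the median of all genes moved from 0.01 to -0.24. Without RNAi cytoplasmic replicate 2 the number higher was 7. RHOB stood at 211 CPM in control cytoplasm and 576 and 491 CPM in RNAi cytoplasm, a log2 change of 1.34 ± 0.16 (SE, FDR 0.001), or 2.53-fold. SOX12 went from 4.26 to 8.18 and 10.9 CPM, a log2 change of 1.15 ± 0.25 (SE, FDR 0.011). SFN, the 14-3-3 sigma cell cycle regulator, had 2.01 and then 4.75 and 5.69 CPM (1.37 ± 0.34 SE, FDR 0.02), and FBLL1, a paralog of the nucleolar methyltransferase fibrillarin, 1.10 and 2.73 and 3.61 CPM (1.51 ± 0.43 SE, FDR 0.032). CITED4, C6orf226, FZD2, CENPB and RNF26 were higher by 0.83, 0.68, 0.67, 0.63 and 0.53 on the log2 scale.

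On the lower side, SMIM10 had 6.51 CPM in control cytoplasm and 1.40 and 1.09 CPM in RNAi cytoplasm, a log2 change of -2.36 ± 0.39 (SE, FDR 0.0038). NAP1L2 changed by -1.90 ± 0.43 (SE, FDR 0.013) and KCTD12 from 199 to 100.2 and 77.4 CPM, -1.16 ± 0.21 (SE, FDR 0.005). HSPB9 had 12 reads in control cytoplasm and 2 in RNAi cytoplasm, a ratio of 8.03 with a counting interval of 1.79 to 73.8, and AL353791.1, whose sequence is shared with CNTNAP3 and CNTNAP3B, had 11 and 3 reads.

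The change of the nuclear/cytoplasmic ratio after RNAi compares the fractions and the siRNAs in 1 contrast. It is the measure by which the study looked for altered export. The shares given here, from 1680 rises and 1273 falls over all genes tested, are those of the present fit with 1 control cytoplasmic library. They are not the study's own counts, which came from 3 replicates and were far lower. The ratio rose in 6 members (3.19%), against 10.4% of all genes and 11.5% of spliced genes, and fell in 10 (5.32%), against 7.87% and 9.17%. Median log2 changes were -0.13 for members, -0.05 for all genes and -0.08 for spliced genes, and 117 members had a negative and 71 a positive estimate. With library size alone 12 members rose and 1 fell, and the median of all genes moved from -0.05 to 0.23, so the balance of rises and falls depends on the scale. Without control nuclear replicate 3 the number of falls was 4 and without RNAi cytoplasmic replicate 2 it was 5. Among members of 10 CPM or more 1 of 80 rose and 8 fell (1.25% and 10%), beside 8.96% and 13.9% of spliced genes of that level. Their medians were both -0.19. Below 10 CPM the medians were -0.04 and 0.25, with 5 of 108 members and 15.2% of spliced genes called higher. Of the 117 members on the m6A list 3 rose and 8 fell, and of the other 71, 3 rose and 2 fell.

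**Figure D3:**
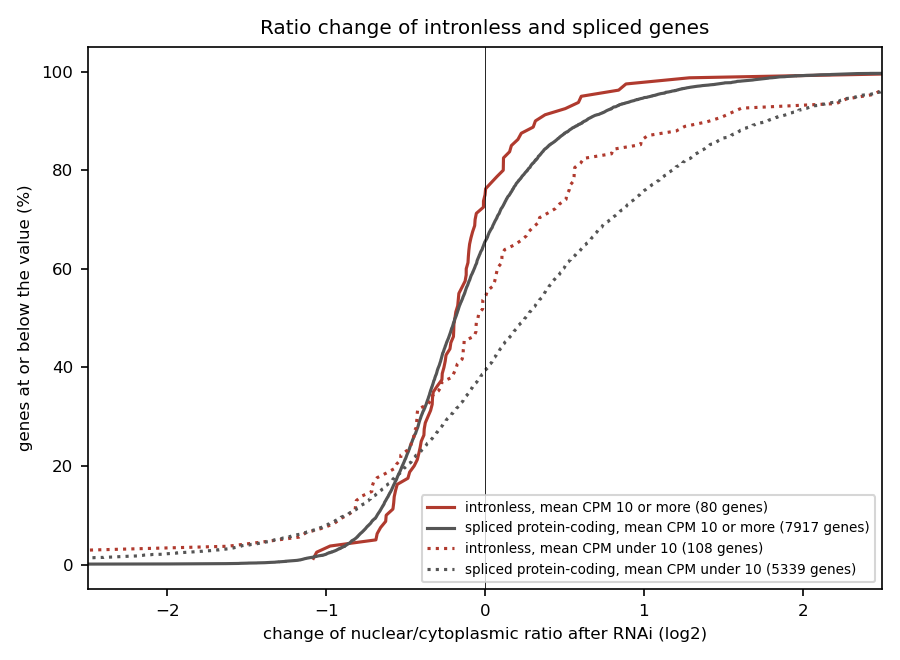
Share of genes (y axis, %) with a log2 change of the nuclear/cytoplasmic ratio at or below the value on the x axis, for intronless members (red) and spliced protein-coding genes (grey), at a mean of 10 CPM or more (solid) or under 10 CPM (dotted). At 10 CPM or more both curves cross 50% near the same value, with medians of -0.19, and under 10 CPM the spliced genes lie further to the right. Values beyond 2.5 either way are outside the plot.

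RHOB had the highest mean CPM of the members whose ratio changed. Its nuclear level was 276, 260.0 and 274 CPM in control and 362, 318 and 302 CPM in RNAi cells, while its cytoplasmic level went from 211 to 576 and 491 CPM. The log2 ratio thus went from 0.35 to -0.71, a change of -1.06 ± 0.18 (SE, FDR 0.0075), and RHOB stayed under an FDR of 0.1 in each of 15 alternative fits. RHOB (ENSG00000143878) spans chr2:20646835-20649201 on the plus strand, and all its estimated counts were whole. RNF26 moved the same way. It had 247, 211 and 227 CPM in control nuclei, 214, 231 and 218 in RNAi nuclei, 231 in control cytoplasm and 337 and 329 in RNAi cytoplasm, and a ratio change of -0.58 ± 0.16 (SE, FDR 0.04). FNDC10 was cytoplasmic in control cells and its ratio fell further, by 0.55 (FDR 0.048). Unlike RHOB, RNF26 and FNDC10 lost their calls in several alternative fits. Among these were library size alone, at least 10 counts in every library and the fit without control nuclear replicate 3. Both RNAi cytoplasmic libraries were above the control one in these 3 genes, while the RNAi nuclei were all above the control nuclei for RHOB, all below for FNDC10 and overlapping for RNF26.

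FZD2 and SOX12 were nuclear in control cells and less so after RNAi. FZD2 had 75.1, 68.2 and 68.6 CPM in RNAi nuclei, overlapping the control nuclei, and rose from 26.4 to 41.0 and 43.1 CPM in cytoplasm, a ratio change of -0.69 ± 0.17 (SE, FDR 0.027). SOX12 had 14.4, 16.5 and 13.3 CPM in control nuclei and 14.3, 15.8 and 16.4 in RNAi nuclei, and a ratio change of -1.08 ± 0.29 (SE, FDR 0.038). No estimated count of SOX12 was whole. For NOG the nuclear level fell and the cytoplasmic level went from 1.64 to 1.79 and 2.08 CPM, a ratio change of -1.13 ± 0.39 (SE, FDR 0.086), on 27 and then 23 and 19 cytoplasmic reads. CENPB, which binds centromeric satellite DNA, TMEM185B and FAM43B changed by -0.66 ± 0.23 (SE, FDR 0.093), -0.63 ± 0.22 (SE, FDR 0.089) and -0.98 ± 0.23 (SE, FDR 0.024). KRTAP19-1, a hair keratin-associated protein gene, had the largest fall of those called, -1.39 ± 0.43 (SE, FDR 0.063), at 3.69 CPM on average. FAM43B and FZD2 kept their calls in 14 of 15 alternative fits, CENPB in 5 and NOG and TMEM185B in 4. SOX12 lost its call in 2 of 15 and KRTAP19-1 in 6 of 15.

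The members whose ratio rose were mostly rare. P2RY1 (ENSG00000169860, chr3:152552920-152559228, plus strand), a receptor for ADP, had 6.87, 4.16 and 4.42 CPM in control nuclei and 8.76, 5.65 and 7.41 CPM in RNAi nuclei, while its cytoplasmic level went from 6.57 to 2.03 and 1.97 CPM. The ratio change was 2.21 ± 0.44 (SE, FDR 0.013). SMIM10 (ENSG00000184785, chrX:134125021-134126503, plus strand), which encodes a small membrane protein, had 2.88, 2.11 and 2.21 and 3.69, 2.13 and 2.11 CPM in control and RNAi nuclei, and a ratio change of 2.5 ± 0.48 (SE, FDR 0.012). In both the nuclear groups overlapped and the cytoplasmic level was lower in RNAi cells, and both stayed under an FDR of 0.1 in all 15 alternative fits. KCTD12, at 13.7 TPM the most abundant of the 6, changed by 0.84 ± 0.26 (SE, FDR 0.061) and NAP1L2 by 1.62 ± 0.53 (SE, FDR 0.077). KCTD12 lost its call in 3 of 15 alternative fits and NAP1L2 in 8 of 13. IGIP, named for its secreted product that induces IgA, rested on 11 control and 3 and 1 RNAi cytoplasmic reads, with a ratio change of 2.45 ± 0.68 (SE, FDR 0.044). DCAF4L1, named after its values were seen since its mean was under 1 CPM, had 38 reads in RNAi nuclei and 0 in RNAi cytoplasm, at least 7.15-fold higher in the nucleus, with 6 reads in control cytoplasm.

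**Figure D4:**
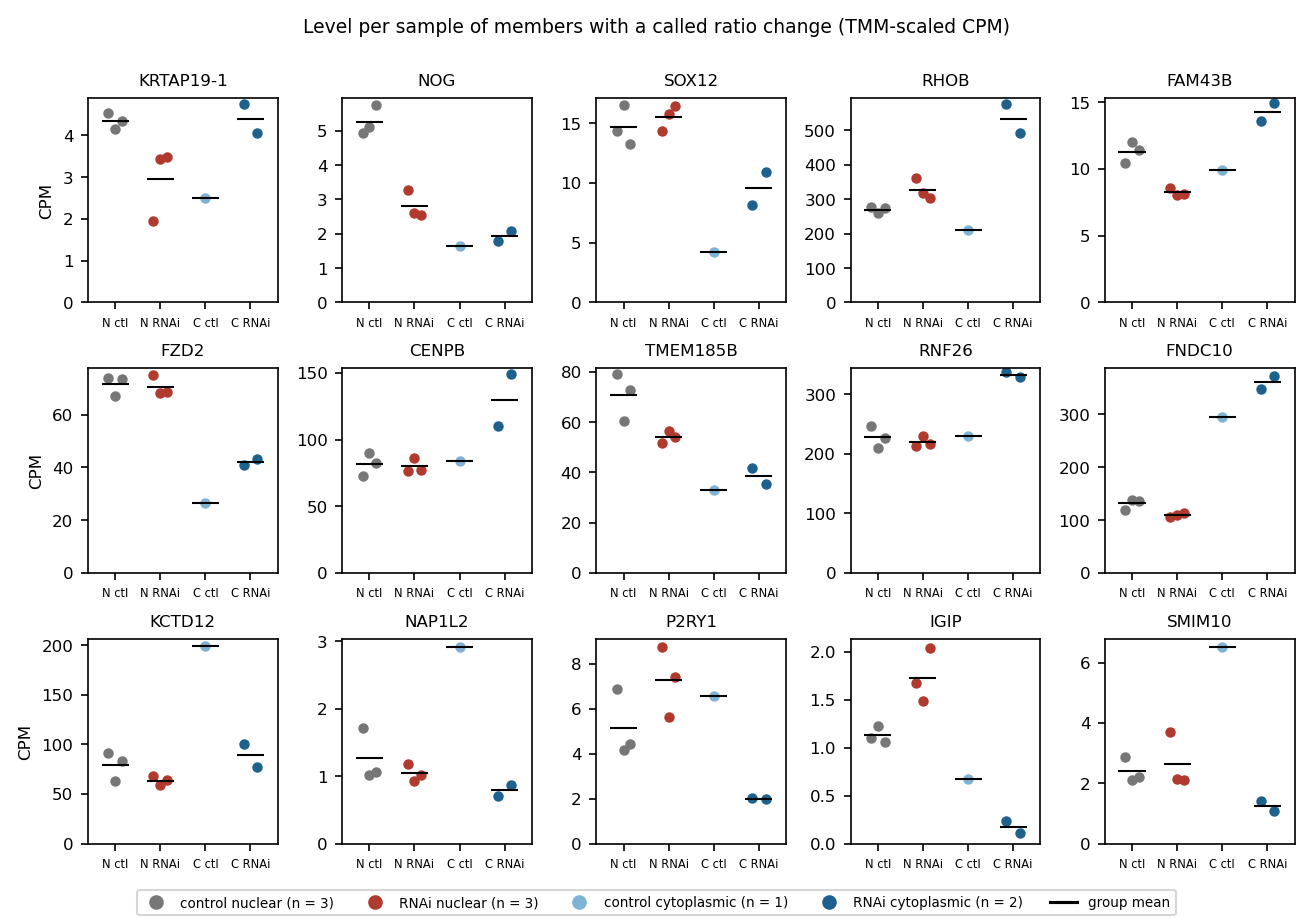
CPM (TMM-scaled) in each library of the 15 members with a called ratio change and a mean of at least 1 CPM, in the order of their ratio change, with N for nuclear, C for cytoplasmic and ctl for control. Points are libraries, bars are group means, and each scale starts at 0. In RHOB, RNF26, FZD2 and SOX12 both RNAi cytoplasmic points stand above the control one, and in KCTD12, NAP1L2, P2RY1, IGIP and SMIM10 both stand below it.

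Other measures moved with these changes. GC content of the 6 members that rose was 35.5% to 44.3% and of the 10 that fell 43.4% to 70.7%. Across the 188 members Spearman's rho between GC content and the ratio change was -0.39, and 0.41 with the cytoplasmic and -0.01 with the nuclear change, and across the 13256 spliced genes the values were -0.57, 0.59 and -0.01. Genes share the same 9 libraries, so these values describe them and are not a test. For GGACT per kb and for transcript length rho with the ratio change was -0.19 and 0.13 among members. Of the 3 nuclear RNAs fixed as markers, MALAT1 and KCNQ1OT1 were lower in RNAi than in control cytoplasm past the FDR limit and NEAT1 was not. MALAT1 stood at 13.8 CPM in control and 6.46 and 5.47 CPM in RNAi cytoplasm (log2 change -1.20, FDR 0.064), and the log2 change was -0.78 (FDR 0.056) for KCNQ1OT1 and -0.32 (FDR 0.223) for NEAT1. Their nuclear/cytoplasmic ratios rose after RNAi, by 1.33 (FDR 0.094), 1.58 (FDR 0.0099) and 0.85 (FDR 0.025). KCNQ1OT1 and NEAT1 were also higher in RNAi than in control nuclei, by 0.79 (FDR 0.023) and 0.52 (FDR 0.030), and MALAT1 changed there by 0.13 (FDR 0.790). The part of base composition or of nuclear RNA in the cytoplasmic libraries in the members' values was not tested.

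By role, 81 members fell on 17 of the 18 lists of symbols, and 107 on none. The 6 Frizzled genes, receptors for Wnt ligands, all had negative nuclear estimates (-1.04 to -0.02), of which FZD10 passed the test, and FZD2 passed for the ratio. Their median nuclear change was -0.21 beside -0.08 for all members and 0.00 for all genes, and these differences were not tested. FZD7, the next most abundant after FZD2 at 5.94 TPM, had a ratio change of -0.40 ± 0.29 (SE, FDR 0.407). The 8 other G protein-coupled receptors had P2RY1 as their called member, and GPR27, at 12.1 TPM the most abundant, had a ratio change of -0.12 ± 0.28 (SE, FDR 0.827).

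Of the 14 forkhead, SOX and POU factors, SOX12 fell in ratio and FOXD4 in the nucleus, and 10 of 14 nuclear estimates were negative with a median of -0.30. SOX4, the most abundant at 15 TPM, had a nuclear change of -0.36 ± 0.11 (SE, FDR 0.091), past the FDR and short of the log2 limit. The neural progenitor factor SOX2, picked out after its values were seen, had one of -0.61 ± 0.20 (SE, FDR 0.118) and FOXD3 one of -0.04 ± 0.20 (SE, FDR 0.944). CEBPB, a bZIP transcription factor at 18.1 TPM, had a nuclear change of -0.32 ± 0.12 (SE, FDR 0.159). Among the 3 zinc finger genes outside ZNF, INSM1 fell in both fractions and ZXDB, which shares its reads with ZXDA, had a nuclear change of -0.10 ± 0.18 (SE, FDR 0.788).

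The 10 signal feedback regulators all had negative ratio estimates, with a median of -0.29 against -0.05 for all genes. Only 1 of them, NOG, passed the test. Their median level was 16.8 CPM and their median GC content 61.6%. At a mean of 10 CPM or more, 59 of 80 members had a negative estimate, with a median of -0.19. With library size alone the median of all genes was 0.23. A difference of this list beyond level, GC content and scale was not tested. IRF2BP1, the most abundant of the 10 regulators, had a ratio change of -0.68 ± 0.25 (SE, FDR 0.104), just short of the FDR limit. Among the 10 genes with symbols of ubiquitin ligase subunits and deubiquitinases RNF26 fell and KCTD12 and DCAF4L1 rose in ratio, and UBQLN2, a proteasome shuttle protein, had a ratio change of 0.17 ± 0.27 (SE, FDR 0.736). KCTD12 carries the symbol of this list but is known as a GABA-B receptor subunit. All 5 glycosylation genes had negative nuclear estimates with a median of -0.44, beside -0.08 for all members. B3GALT6 and GALNT4 passed, and MGAT2, an N-glycan branching enzyme at 10 TPM, had -0.24 ± 0.11 (SE, FDR 0.243). Over all genes tested 2.42% fell in RNAi nuclei. GALNT4, which lies within POC1B and had no whole count, lost its call in 6 of 15 alternative fits. Neither call remained when replicate 3 of the control or of the RNAi nuclei was dropped. A difference of this list from other genes was not tested.

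The 5 RNA-binding and translation genes gave no call after RNAi by edgeR in either fraction. PCBP1, in this list, had a nuclear change of 0.21 ± 0.13 (SE, FDR 0.392) and a cytoplasmic change of 0.45 ± 0.19 (SE, FDR 0.129), and HNRNPA0 of -0.21 ± 0.08 (SE, FDR 0.166) and 0.11 ± 0.12 (SE, FDR 0.551). The 4 MAGE homology genes likewise gave no call after RNAi. MAGEF1 had a nuclear change of -0.46 ± 0.12 (SE, FDR 0.057) and NSMCE3, a subunit of the SMC5/6 complex, of 0.03 ± 0.12 (SE, FDR 0.910). Of the 3 small GTPases RHOB and RAP2B had calls, in the ratio and the nucleus.

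**Figure D5:**
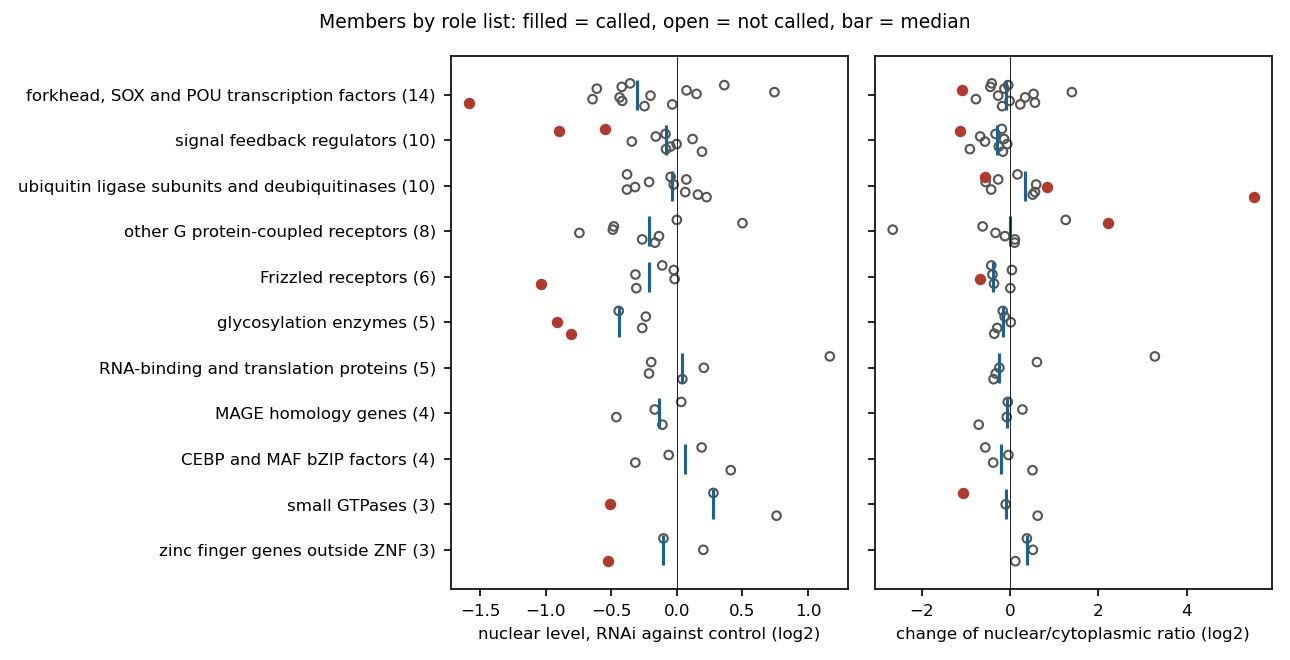
Log2 change of the nuclear level (left) and of the nuclear/cytoplasmic ratio (right) after RNAi for members on the 11 role lists with at least 3 members, with the number of members in brackets. Filled red points were called, open points were not, and blue bars are medians. The called points in the left panel all lie below 0, and the point beyond 5 in the right panel is DCAF4L1, with 0 reads in RNAi cytoplasm.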

How the data were processed

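RNA of nuclear and cytoplasmic fractions of HEK293 cells (HEK293T in the study's methods) was sequenced by the authors on a HiSeq 2500 after Lexogen SENSE library preparation (9 libraries). The authors trimmed reads with cutadapt and quantified transcripts with salmon against Ensembl 75 on hg19. The salmon version and strand setting are not given in the sources used here. The deposited files hold estimated counts, TPM and effective lengths per transcript, which are not normalised between libraries except that TPM has the same sum in each library.

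Of 215170 transcripts 183122 (85.1%) were matched without version to GENCODE 44 lifted to GRCh37 and summed per gene. Estimated counts were rounded and fitted with edgeR 4.0.16 (R 4.3.3) after keeping genes with at least 10 counts in at least 3 libraries and TMM scaling, with 4 groups, 16181 genes, 5 residual degrees of freedom and no replicate block. The quasi-likelihood test was called at a Benjamini-Hochberg FDR under 0.1 over all genes and an absolute log2 difference above 0.5, and the SE is the log2 difference divided by the square root of F. The single control cytoplasmic library is assumed to vary like the other groups. CPM is scaled by TMM, and 3 counts correspond to 0.190 to 0.303 CPM. Copies were searched with BLAST 2.17.0, and tables and plots were made in Python 3.11.15. The scripts were tested on simulated data.

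The members and lists were chosen with earlier results of these data known. Named genes are the 12 highest in mean TPM, the 8 largest called ratio changes and the 5 largest called changes of the other comparisons in each direction at a mean of at least 1 CPM, and the 2 most abundant members of each role list with 3 or more. Others are marked where they appear. Alternatives were DESeq2 size factors, scaling by library size alone, a Wald test in DESeq2 1.42.0, other low-count filters, a length offset, the nuclear libraries alone, a replicate block and leaving out each library, and, chosen after seeing the data, the 139 members with no same-strand overlap or copy. The values of 1 member are not reported here.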

Additional observations from a re-analysis of the deposited data

Results flagged for a closer look

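These values came from the edgeR test of the difference between the fractions' responses, with FDR over all genes, and each member is listed because its response to RNAi differed between nucleus and cytoplasm. The nuclear/cytoplasmic ratio was lower after RNAi, on the log2 scale, for KRTAP19-1 (-1.39), NOG (-1.13), SOX12 (-1.08), RHOB (-1.06), FAM43B (-0.98), FZD2 (-0.69), CENPB (-0.66), TMEM185B (-0.63), RNF26 (-0.58), FNDC10 (-0.55) and ATXN7L3B (-0.43). ATXN7L3B passed the FDR limit at 0.095 and stayed below the log2 limit of a call. The ratio was higher for KCTD12 (0.84), NAP1L2 (1.62), P2RY1 (2.21), IGIP (2.45) and SMIM10 (2.5). The fitted value for DCAF4L1 was 5.52, which is no bound because RNAi cytoplasm held 0 reads of it. The siRNA target WTAP, which is spliced and no member, fell further in the cytoplasm than in the nucleus, with a ratio change of 0.89 (FDR 0.033).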

How the results depend on the processing

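Without any replicate, 0 to 4 members rose and 0 to 15 fell in the nucleus, 7 to 21 rose in the cytoplasm, and the ratio rose in 4 to 8 and fell in 4 to 12, and the VIRMA change was -0.88 to -1.29. With library size only, 13 members were cytoplasmic in RNAi cells, 0 rose and 4 fell in the nucleus, 4 rose and 32 fell in the cytoplasm, and the ratio rose in 12 and fell in 1. With at least 10 counts in every library, 26 were nuclear in control cells, 26 nuclear and 21 cytoplasmic in RNAi cells, and the ratio rose in 3 and fell in 6. Nuclear rises and falls were 0 and 4 with the length offset, 0 and 6 with the DESeq2 Wald test, and rises were 5 without the low-count filter and 4 with the nuclear libraries alone. The length offset left 6 ratio falls and VIRMA at -1.07 (FDR 0.121). VIRMA also missed the FDR limit without control nuclear replicate 3 (0.123), RNAi nuclear replicate 2 (0.123) and RNAi nuclear replicate 3 (0.141). DESeq2 called 9 members lower in the cytoplasm. Among the 139 members without same-strand overlap or copy, 27 were nuclear in RNAi cells and 0 rose in RNAi nuclei. With the replicate block, 3 rose in the nucleus, 23 fell in the cytoplasm and the ratio rose in 12 and fell in 16. Correlations of same-numbered nuclear libraries were 0.185, 0.110 and 0.042, and RNAi nuclear replicate 3 was closer to control nuclear replicate 2 (0.056). The other differently numbered nuclear pairs were negative. With same-numbered RNAi cytoplasmic libraries, control nuclei had 0.197 and 0.194 and RNAi nuclei 0.0998 and 0.037. RNAi nuclear replicate 3 had 0.063 with RNAi cytoplasmic replicate 2. A replicate effect is thus possible, and the main fit does not allow for it. For the named genes, 624 values kept their direction and side of the limit, 105 kept the direction only and 0 reversed. These values are refits of overlapping libraries for genes named by their large called changes. A reversal was thus unlikely from the start. The cause of the shifts between fits was not tested. The single control cytoplasmic library limits each comparison that uses it.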
